A study of Mus musculus with 6 samples.

Results

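Genes that place and read methylation on lysine 9 of histone H3 (H3K9) were measured in a mouse fibroblast line whose tagged chromosome regions either lay at the nuclear periphery or lay centrally. The set holds 9 genes, chosen by symbol: the methyltransferase genes Suv39h1, Suv39h2, Ehmt1, Ehmt2 and Setdb1, the co-repressor gene Trim28, and the heterochromatin protein 1 (HP1) genes Cbx1, Cbx3 and Cbx5. Every probe set that the platform annotation assigns to 1 of these symbols alone was taken, which gave 22 of the 45037 probe sets on the array, for 8 of the 9 genes. Suv39h1 was named by 0 probe sets, so it has no intensities here and enters by its promoter sequence alone.

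Biotin-labelled total RNA was read on Affymetrix expression arrays, 1 sample per array. The 3 tethered samples were NIH3T3 fibroblasts of clone M with the genomic insertion at the nuclear periphery, and the 3 untethered samples were cells of the same clone with the insertion centrally placed. All 6 samples share the multiple insertions of the lac operator (lacO) and the same medium with 10% FCS. Clone M is 1 clone, and the labels used here do not say how tethering was brought about, how long it lasted, or whether arrays of a group came from separate cultures, so p-values measure the spread between these samples, which may be technical.

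Methylated H3K9 marks constitutive and facultative heterochromatin, much of which lies against the nuclear lamina. Suv39h1 and Suv39h2 place trimethylation at pericentromeric repeats, the Ehmt1 and Ehmt2 proteins (GLP and G9a) work as a heterodimer that places mono- and dimethylation in euchromatic regions, and Setdb1 is brought to retroelements and other targets by Trim28 (KAP1), which is itself recruited by KRAB zinc-finger proteins. HP1 proteins bind the methylated lysine through a chromodomain and bind partners, Suv39h enzymes and Trim28 among them, through a chromoshadow domain. The Cbx5, Cbx1 and Cbx3 genes encode HP1 alpha, beta and gamma.

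Array medians lay between 482.5 and 490.8 on the authors' linear intensity scale. Intensities under 16 were set to 16, log2 was taken, and probe sets whose mean log2 intensity exceeded the median of all were tested with limma, which left 22518 probe sets in all and 17 of the 22 of the set. The 5 others are given with values from a fit with no filter. All 10 fibroblast marker genes had their brightest probe set above the filter. Of the markers of other cell types, 1 of 5 epithelial (Epcam), 2 of 5 endothelial (Pecam1 and Kdr) and 4 of 6 macrophage markers (Csf1r, Adgre1, Cd14 and Lyz2) did too. No detection calls were used, so signal above the filter does not show that a gene is expressed.

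No gene of the set passed the test between tethered and untethered cells. Of its 17 tested probe sets 0 passed an adjusted p of 0.05 (limma, Benjamini-Hochberg over all probe sets), where 0% of the 22518 did, and 0 had an unadjusted p under 0.05, where 2.38% did. The smallest unadjusted p in the set was 0.134, and every adjusted p was 0.9994. Values below 0, that is lower in tethered cells, numbered 9 of 17, against 55.9% of all tested probe sets. The median log2 fold change was -0.0056, against -0.016 over all tested probe sets. The groups did not overlap on 2 of the 17, where 8.16% of all tested probe sets did not overlap. No probe set of the set had a log2 fold change above 0.3 in size, which 972 of the 22518 exceeded.

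**Figure D1:**
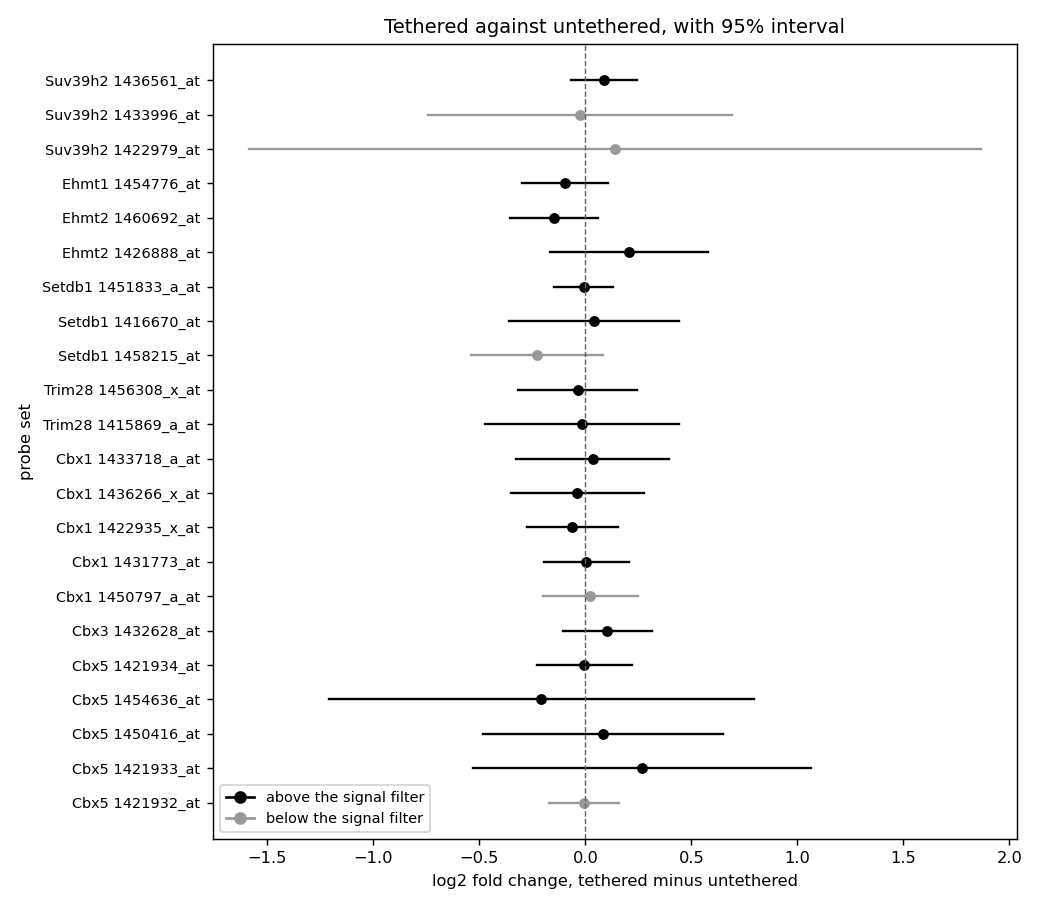
Log2 fold change (tethered minus untethered) of each of the 22 probe sets on the horizontal axis, with its 95% interval from limma (n = 3 arrays per group), black for the 17 above the signal filter and grey for the 5 below it. Every interval includes 0, and the widest belong to Suv39h2 and Cbx5 probe sets.

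Among the methyltransferases, Suv39h2 was read by 3 probe sets. The brightest, 1436561_at, gave intensities of 3065, 2972 and 3044 in tethered replicates 1, 2 and 3, against 2869, 2719 and 2965 in untethered replicates 1, 2 and 3. Each tethered value was above each untethered value, and the gap was small. The ratio of tethered to untethered was 1.06 with a 95% interval from 0.954 to 1.18 (log2 fold change 0.09, SE 0.064, limma adjusted p = 0.9994).

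The other 2 probe sets of Suv39h2 lay below the filter. Probe set 1422979_at read 155, 409 and 601 in tethered and 148, 270 and 709 in untethered replicates 1, 2 and 3, and 1433996_at read 248, 362 and 457 in tethered and 256, 360 and 470 in untethered ones. Both were lowest in the 2 arrays numbered 1 and highest in the 2 numbered 3, and the groups overlapped. Their log2 fold changes were 0.14 (SE 0.71) and -0.024 (SE 0.30). On 1422979_at the highest array exceeded the lowest by 4.79 times, while on 1436561_at it did so by 1.13 times, so probe sets of 1 gene differed in how far arrays lay apart.

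Ehmt1, which encodes GLP, had 1 probe set. It read 2295, 2149 and 2456 in tethered and 2315, 2622 and 2428 in untethered replicates 1, 2 and 3. The groups overlapped, and the ratio was 0.937 (95% interval 0.813 to 1.08, log2 fold change -0.095, SE 0.083). Without untethered replicate 2, the highest array, the log2 fold change was -0.046, and without tethered replicate 2, the lowest, it was -0.047.

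Ehmt2, which encodes G9a, had 2 probe sets, and both were designed on the same sequence record. Probe set 1460692_at read 4079, 3667 and 3993 in tethered and 4118, 4725 and 4166 in untethered replicates 1, 2 and 3. All 3 tethered values lay under all 3 untethered values, with a log2 fold change of -0.15 (SE 0.085, 95% interval -0.35 to 0.061) that did not pass the test (limma adjusted p = 0.9994). Probe set 1426888_at pointed the other way. It read 2290, 2091 and 2356 in tethered and 2061, 1557 and 2291 in untethered replicates 1, 2 and 3, with a log2 fold change of 0.21 (SE 0.15). Untethered replicate 2 held both the highest value of the first probe set and the lowest of the second. Without that array the log2 fold changes were -0.083 and 0.046. On that array the controls for RNA integrity at the transferrin receptor, beta-actin and Gapdh had their lowest difference of 5' over 3' signal, at -3.07, -0.56 and -0.060 on the log2 scale. The other 5 arrays lay from -2.81 to -1.52, from -0.31 to -0.10 and from 0.038 to 0.095. Between the groups, the Gapdh difference was the higher in each tethered array, at 0.095, 0.088 and 0.082 in tethered and 0.038, -0.060 and 0.076 in untethered replicates 1, 2 and 3 (two-sided exact permutation p = 0.1, the smallest that 3 against 3 allows). The part of RNA quality in the Ehmt2 values was not tested. The mean of both Ehmt2 probe sets had a log2 fold change of 0.03.

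Setdb1 had 3 probe sets. The brightest, 1451833_a_at, was the steadiest of the set, at 1839, 1804 and 1844 in tethered and 1823, 1819 and 1875 in untethered replicates 1, 2 and 3. Its highest array exceeded its lowest by 1.04 times, and its ratio of tethered to untethered was 0.995 (95% interval 0.903 to 1.10). Probe set 1416670_at read 1219, 1225 and 1019 in tethered and 946, 1055 and 1398 in untethered replicates 1, 2 and 3, a log2 fold change of 0.04 (SE 0.16). Within replicate numbers 1 and 2 the tethered array was the higher, by 0.37 and 0.22 on the log2 scale, and within number 3 it was the lower (-0.46). The third, 1458215_at, lay below the filter and read 329, 316 and 242 in tethered and 332, 334 and 364 in untethered replicates 1, 2 and 3. Its groups did not overlap. The log2 fold change of -0.23 (SE 0.13, unadjusted p = 0.125) was -0.090 without tethered replicate 3, the lowest array.

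Trim28, the scaffold that brings Setdb1 and HP1 to KRAB zinc-finger targets, had 2 probe sets. Probe set 1456308_x_at read 5248, 5500 and 5952 in tethered and 4889, 6288 and 6019 in untethered replicates 1, 2 and 3. Probe set 1415869_a_at read 4502, 4762 and 5695 in tethered and 3828, 5820 and 5656 in untethered replicates 1, 2 and 3. On both, the arrays numbered 1 were the lowest of their groups and the groups overlapped. The log2 fold changes were -0.036 (SE 0.12) and -0.015 (SE 0.19). An ending of _x in an Affymetrix name marks probes that may also match other transcripts.

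**Figure D2:**
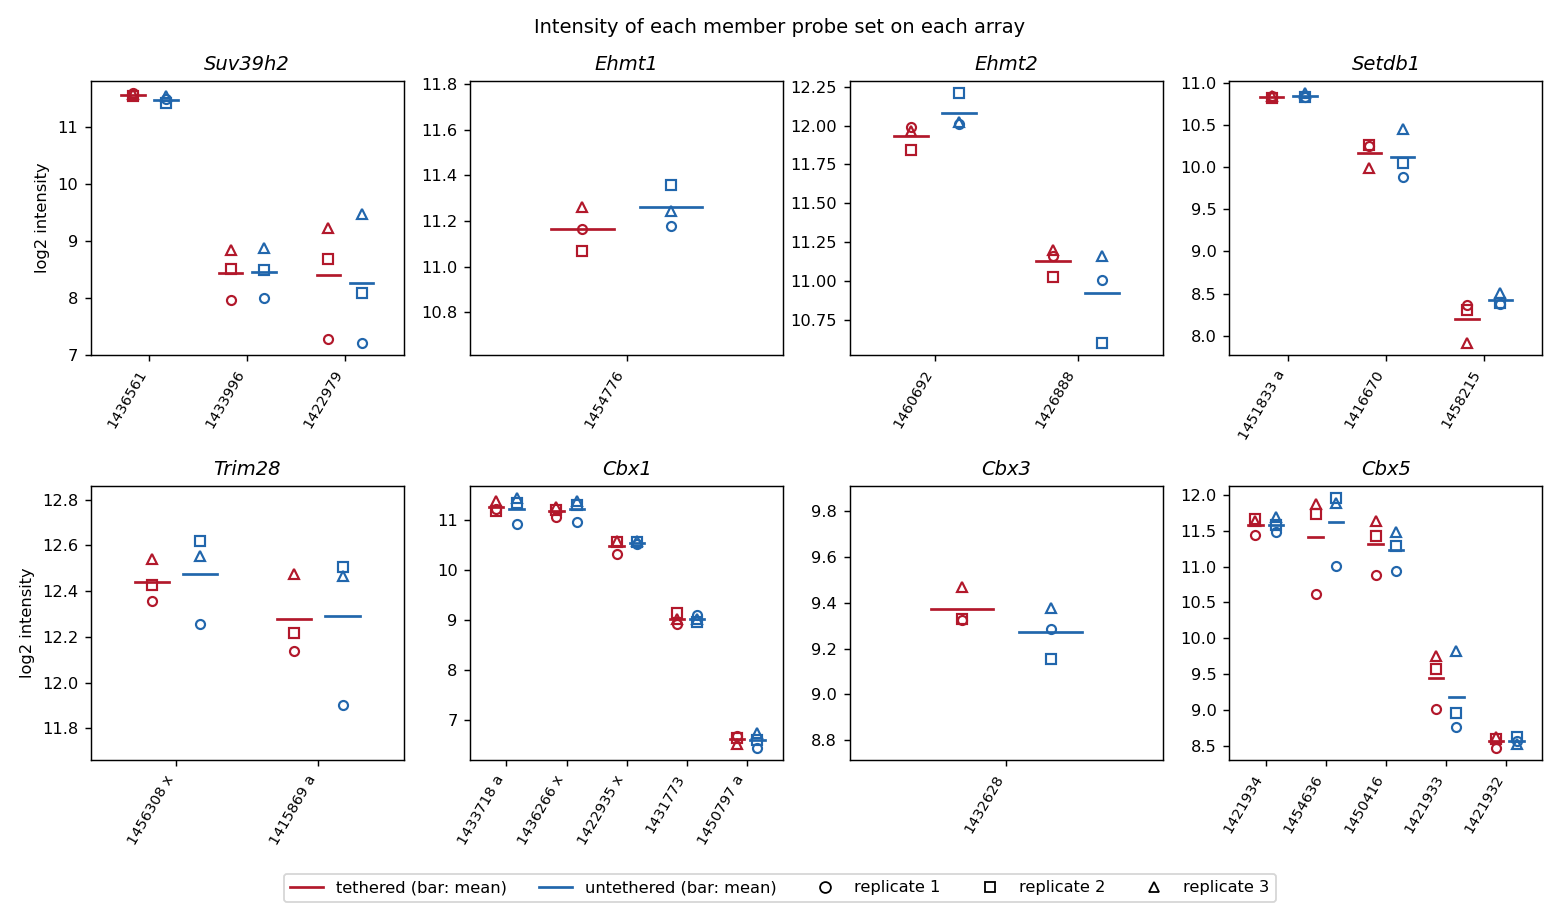
Log2 intensity (vertical axis) of every probe set of the 8 measured genes, 1 panel per gene with its own axis, tethered arrays in red left of untethered arrays in blue, with symbols for the replicate number and a bar for the group mean (n = 3). The groups overlap on 19 of the 22 probe sets. Both arrays numbered 1 (circles) lie below all other arrays on 9 probe sets, 3 of Cbx5 and 2 each of Trim28, Cbx1 and Suv39h2. Of the 17 tested probe sets 7 had this order, where 23.3% of all tested probe sets did.

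Of the HP1 genes, Cbx1 (HP1 beta) had 5 probe sets, 4 of them above the filter. The brightest, 1433718_a_at, read 2385, 2335 and 2688 in tethered and 1947, 2587 and 2767 in untethered replicates 1, 2 and 3. Its log2 fold change was 0.03 (SE 0.15), and the groups overlapped. The other 4 had log2 fold changes between -0.061 and 0.024, with the groups overlapping on each. Their intensities ran from 1288 to 2676 on 1422935_x_at and 1436266_x_at, from 486 to 563 on 1431773_at, and from 87.8 to 107 on 1450797_a_at, the dimmest probe set of all 22.

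Cbx3 (HP1 gamma) was named alone by 1 probe set. It read 641, 643 and 709 in tethered and 625, 569 and 664 in untethered replicates 1, 2 and 3, and the groups overlapped. The ratio was 1.07 (95% interval 0.929 to 1.24, log2 fold change 0.10, SE 0.086). The log2 fold change was 0.043 without untethered replicate 2, the lowest array, and 0.055 without tethered replicate 3, the highest. Another 4 probe sets carry Cbx3 together with its pseudogene Cbx3-ps5, so their signal cannot be assigned to Cbx3 and they are not counted in the set. Their log2 fold changes ran from -0.14 to -0.062, and 0 of the 3 above the filter were called.

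Cbx5 (HP1 alpha) had 5 probe sets that differed in how far the arrays lay apart. The brightest, 1421934_at, read 2790, 3234 and 3179 in tethered and 2870, 3053 and 3311 in untethered replicates 1, 2 and 3, with a ratio of 0.996 (95% interval 0.853 to 1.16). Probe set 1454636_at read 1577, 3416 and 3741 in tethered and 2060, 3958 and 3805 in untethered replicates 1, 2 and 3. In both groups the array numbered 1 stood far under the other 2, and the groups overlapped. The tethered array was the lower within each number, with differences of -0.39, -0.21 and -0.024 on the log2 scale for numbers 1, 2 and 3, and the log2 fold change was -0.21 with an SE of 0.41.

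Probe set 1450416_at of Cbx5 read 1891, 2760 and 3188 in tethered and 1957, 2510 and 2852 in untethered replicates 1, 2 and 3. Probe set 1421933_at read 518, 762 and 859 in tethered and 434, 495 and 906 in untethered replicates 1, 2 and 3. Their log2 fold changes were 0.08 (SE 0.23) and 0.27 (SE 0.33). With 1 array left out, that of 1421933_at ran from 0.059, without untethered replicate 1, to 0.59, without untethered replicate 3. The fifth, 1421932_at, lay below the filter with values from 355 to 395 and a log2 fold change of -0.0065. The intervals of the 3 variable probe sets were wide: on 1454636_at the ratio of tethered to untethered could lie anywhere from 0.432 to 1.74. They come from the fit without the replicate number, so a level shared by same-numbered arrays widens them. With the number in the model the SE was 0.091 on 1454636_at, 0.075 on 1450416_at and 0.14 on 1421933_at. None of the 3 passed that fit either (limma adjusted p = 0.740, 0.788 and 0.740).

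Arrays that share a replicate number were then compared across both groups. An F test of the number, with the group in the model, called 2 of the 17 tested probe sets (limma, adjusted p under 0.05), where 5.16% of all tested probe sets were called. At an unadjusted p under 0.05 the count was 3 of 17, all of Cbx5, where 22.6% of all tested probe sets had one. Both belong to Cbx5, 1454636_at (adjusted p = 0.0222) and 1450416_at (adjusted p = 0.0479). Of the 3 probe sets above the filter that carry Cbx3 with its pseudogene, 2 were called by number as well. A further Cbx5 probe set, 1421933_at, had an adjusted p of 0.0976. In the fit with no filter, both dim Suv39h2 probe sets were called as well (adjusted p = 0.0358 for 1433996_at and 0.0469 for 1422979_at) and 1450416_at was not (0.0828). With an ordinary linear model 0 probe sets of the set were called and 2 of all. Leaving out tethered replicate 1, tethered replicate 3 or untethered replicate 3 also left 0 of the set, and leaving out untethered replicate 1 left 1. Over all tested probe sets the same runs, in that order, called 561, 0, 0 and 1218. With quantile normalization, or with arrays centred on their medians, 1454636_at alone was called.

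Both arrays numbered 1 were the lowest of the 6 on 7 of the 17 tested probe sets, where they were so on 23.3% of all tested probe sets. These 7 were 3 of Cbx5, 2 of Trim28 and 2 of Cbx1. They were the highest on 0 of the 17, where 12.2% of all tested probe sets had this order. Probe sets of 1 gene read the same RNA and are not independent of each other. Over the brightest probe set of each of the 8 genes, both arrays numbered 1 were the lowest on 2 (25%), near the share over all, and 0 were called by number. Ehmt1, Ehmt2 and Setdb1 had no probe set with both arrays numbered 1 lowest, and neither did the single dim probe set that names Cbx3 alone. All 3 probe sets above the filter that carry Cbx3 with its pseudogene had this order, the brightest of them with 4299, 6955 and 6796 in tethered and 4771, 8038 and 7077 in untethered replicates 1, 2 and 3.

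Genes of S phase and mitosis were also lowest in both arrays numbered 1. Of 15 such genes, 13 were tested, and 12 of the 13 were called by replicate number, where 5.16% of all tested probe sets were. Between tethered and untethered cells 0 were called. Of smallest p there were Mki67, at a log2 fold change of -0.34 (SE 0.62), and Rrm1, at 0.22 (SE 0.58). The mean deviation of the 13 tested genes from the 6-array mean, on the log2 scale, was -0.997, 0.34 and 0.58 in tethered and -0.81, 0.33 and 0.57 in untethered replicates 1, 2 and 3. Rrm2, a subunit of ribonucleotide reductase, had log2 intensities of 10.28, 12.71 and 12.99 in tethered and 10.47, 12.68 and 12.88 in untethered replicates 1, 2 and 3. The mean deviation over the brightest probe sets of the 8 measured genes was -0.033, -0.041 and 0.061 in tethered and -0.092, 0.036 and 0.068 in untethered replicates 1, 2 and 3. This mean takes 1421934_at for Cbx5 and 1436561_at for Suv39h2, whose arrays lay within 1.19 and 1.13 times of each other, and leaves out the probe sets of both genes whose arrays lay far apart, such as 1454636_at (2.51 times) and 1422979_at (4.79 times). What part cell cycling had in the Cbx5 and Suv39h2 values was not tested. The difference of 5' over 3' signal at the transferrin receptor control was -2.09, -1.67 and -1.55 in tethered and -2.81, -3.07 and -1.52 in untethered replicates 1, 2 and 3. At beta-actin it was -0.29, -0.10 and -0.12 in tethered and -0.31, -0.56 and -0.15 in untethered replicates 1, 2 and 3. At both controls the arrays numbered 1 lay below those numbered 3, and untethered replicate 2 lay lowest, while at Gapdh the array numbered 1 lay below that numbered 3 in untethered cells and above it in tethered ones. What part RNA quality had in the differences between numbers was not tested.

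**Figure D3:**
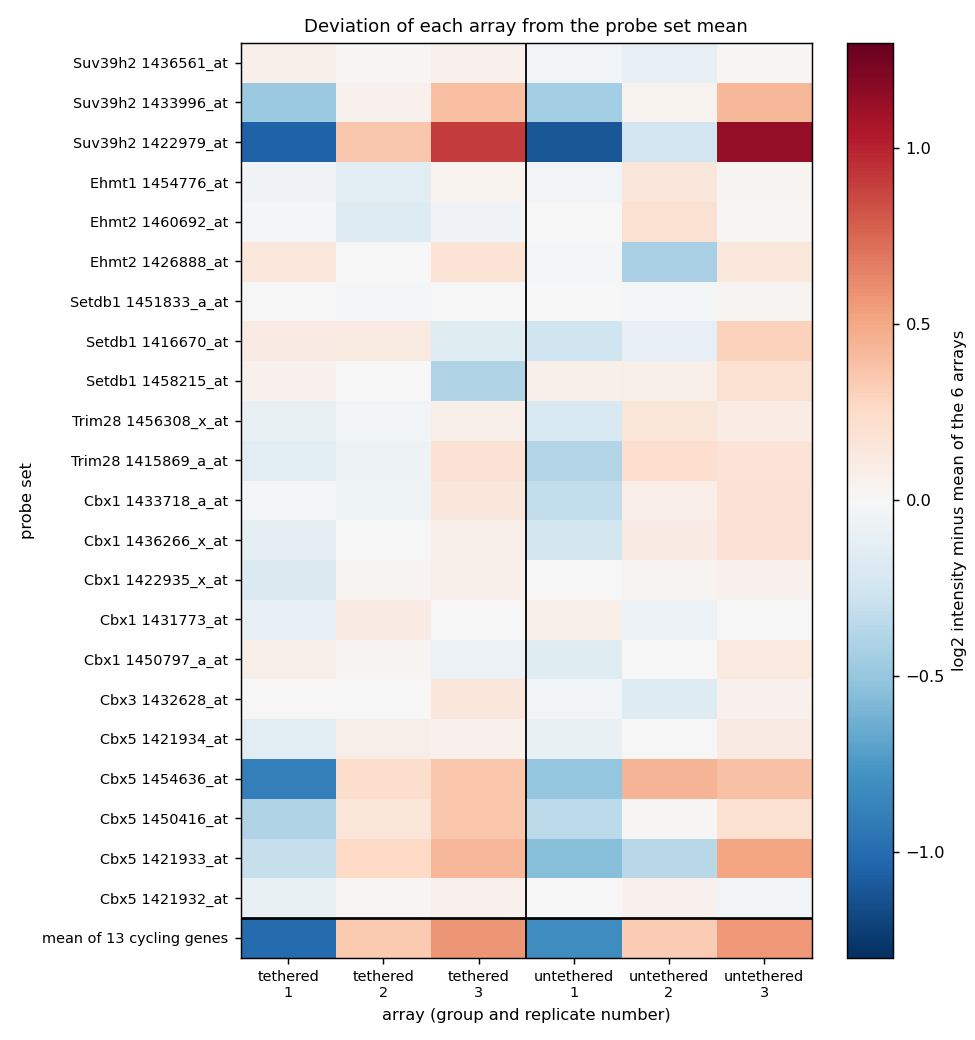
Log2 intensity minus the mean of the 6 arrays (colour, blue low and red high) for each of the 22 probe sets and, under the line, for the mean of 13 tested cycling genes, with the tethered arrays left of the untethered ones. Blue cells in the columns of both arrays numbered 1 include those of 3 Cbx5 and 2 Suv39h2 probe sets, of Trim28 1415869_a_at and of the cycling genes, whose means there were -0.997 and -0.81, while Setdb1 1451833_a_at is near white throughout.

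The promoters of the genes whose arrays lay farthest apart, Cbx5 and Suv39h2, are shown as the stretch from 250 bases before to 50 after the gene start, from RefSeq on GRCm38.p6. Capitals mark matches, on either strand, to CCAAT and to TTTGAA, the letters of the cell cycle homology region found in genes of G2 and mitosis. The Cbx5 stretch lies at chr15:103239803-103240102 on the minus strand, and the Suv39h2 stretch at chr2:3474937-3475236 on the minus strand.
Cbx5: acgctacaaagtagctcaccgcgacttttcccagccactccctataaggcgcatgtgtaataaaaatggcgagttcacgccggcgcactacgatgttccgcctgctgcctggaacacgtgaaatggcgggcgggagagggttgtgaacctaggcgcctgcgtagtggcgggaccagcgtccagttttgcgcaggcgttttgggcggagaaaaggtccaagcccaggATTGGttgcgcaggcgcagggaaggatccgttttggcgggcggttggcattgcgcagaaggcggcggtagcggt
Suv39h2: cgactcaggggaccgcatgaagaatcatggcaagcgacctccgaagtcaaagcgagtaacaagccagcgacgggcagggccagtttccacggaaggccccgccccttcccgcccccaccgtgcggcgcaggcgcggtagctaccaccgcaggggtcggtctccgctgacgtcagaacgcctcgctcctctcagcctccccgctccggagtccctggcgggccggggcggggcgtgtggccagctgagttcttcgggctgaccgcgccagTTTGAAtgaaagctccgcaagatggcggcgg
A CCAAT match stood in the Cbx5 stretch and a TTTGAA match in that of Suv39h2, where 37.4% and 17.9% of all 32851 RefSeq promoters of this length held them. The E2F words TTTGGCGC, TTTGCCGC, TTTCGCGC and TTTCCCGC matched neither stretch. Only exact matches were counted. TTTGGCGG in the Cbx5 stretch and CTTCCCGC in that of Suv39h2 each differ from a listed word by a single base. Over the 13 promoters listed for the 9 genes, 2 held an E2F word (1 of Suv39h1, which has no intensities here, and 1 of Cbx3), against 2.26% of all promoters. Of the same 13, 1 held TTTGAA and 3 held CCAAT, which are smaller shares than the 17.9% and 37.4% of all promoters. CpG counts of the 13 ran from 8 to 40 with a median of 29, and the median of all promoters was 7. Each E2F word holds a CpG, so the E2F share over all promoters is not a like background for these 13. TTTGAA and CCAAT hold no CpG, so their shares over all promoters are not a like background either. The promoter shown for Cbx5 had 29 and that of Suv39h2 had 33. A match is a description of these letters, and a second Cbx5 start, with 8 CpG and none of the motifs, is also listed.

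Other genes of the pathway were not called between tethered and untethered cells either. Of 12 histone demethylase genes, most of them known to act on H3K9, 11 were tested and 0 called. Their median log2 fold change was -0.083, and 9 values lay below 0, where 55.9% of all tested probe sets did. The gene lists were not rerun under other scalings, and with quantile normalization the share over all was 46.5%. Jmjd1c, a member of the JmjC demethylase family, had log2 intensities of 10.33, 9.91 and 10.02 in tethered and 10.61, 10.41 and 10.34 in untethered replicates 1, 2 and 3, a log2 fold change of -0.37 (SE 0.13, limma adjusted p = 0.9994). Its groups did not overlap. Phf8, a PHD-finger demethylase, stood at -0.16 (SE 0.097).

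Of 19 partners of the H3K9 and HP1 machinery 16 were tested, with a median of -0.097 and 0 called. Values below 0 numbered 12 of the 16, against 55.9% of all tested probe sets. Atf7ip, which stabilises Setdb1, had a log2 fold change of -0.29 (SE 0.15). Wiz, a zinc-finger protein of the G9a and GLP complex, stood at -0.18 (SE 0.098). By replicate number, 2 of the 16 tested partners were called (limma F test), where 5.16% of all tested probe sets were. They were Uhrf1, which binds methylated H3K9 and hemimethylated DNA at replication forks (adjusted p = 0.0161), and Chaf1b, a subunit of the replication-coupled chromatin assembly factor (0.0461). Both were named after their values were seen. Uhrf1 read 9.14, 11.37 and 11.63 in tethered and 9.84, 11.64 and 11.59 in untethered replicates 1, 2 and 3 on the log2 scale, again lowest in the arrays numbered 1.

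Other methyltransferases of H3K9 or H4K20 numbered 7, of which 6 were tested, with a median of 0.010 and 0 called. Of the 6 values 1 lay below 0, against 55.9% of all tested probe sets. Mecom, which encodes the PR-domain protein PRDM3, had log2 intensities of 10.12, 10.12 and 10.26 in tethered and 10.39, 10.67 and 10.52 in untethered replicates 1, 2 and 3. Its groups did not overlap, and the log2 fold change of -0.36 (SE 0.094, unadjusted p = 0.00886) did not pass after adjustment over all probe sets (limma adjusted p = 0.9994). Kmt5b, an H4K20 methyltransferase that HP1 brings to heterochromatin, stood at 0.21 (SE 0.089). Its groups did not overlap either, with each tethered value above each untethered value. Of 8 housekeeping genes 5 were tested, with a median of -0.040. Sdha, a subunit of succinate dehydrogenase, stood at -0.17 (SE 0.093) and Tbp, the TATA-binding protein, at -0.040 (SE 0.079).

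**Figure D4:**
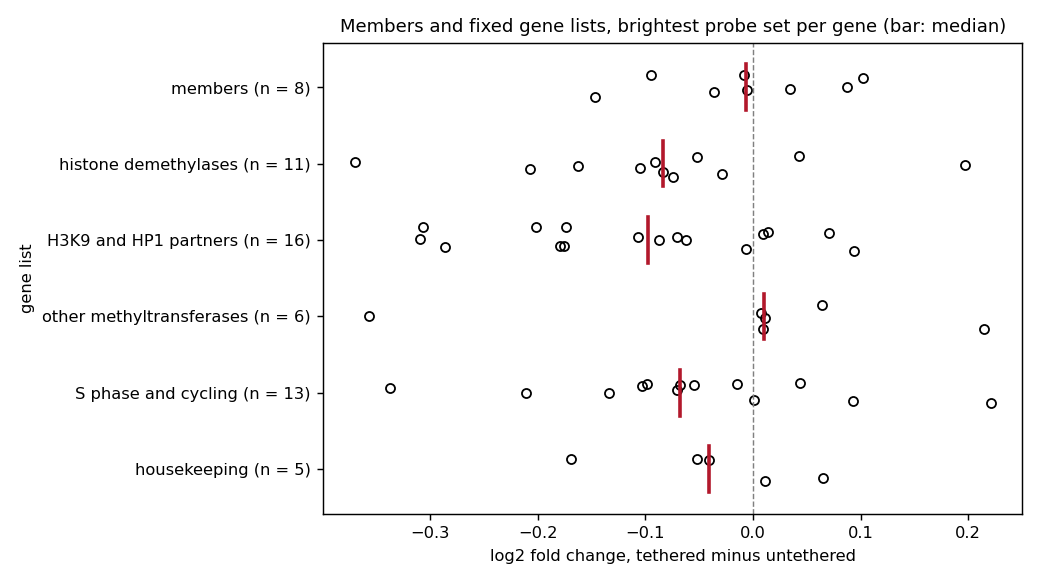
Log2 fold change (tethered minus untethered, horizontal axis) of the brightest tested probe set per gene for the 8 measured genes of the set and 5 gene lists (circles, 1 per gene), with the median as a red bar. The medians run from -0.097 for the partners to 0.010 for other methyltransferases, with the set at -0.0067.

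The 5 probe sets whose profile over the 6 arrays was most like the mean profile of the 8 brightest probe sets belonged to Yes1, Tent4a, Hipk2, Commd10 and Mta2, with Pearson correlations from 0.995 to 0.999. Without the arrays numbered 1, over 4 arrays, the correlations of the same 5 were 0.990 to 0.999. With so few arrays and 22518 probe sets to choose from, these values describe likeness only.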

How the data were processed

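The 6 arrays were grouped by their titles. Per the labels, RNA was extracted with Trizol and labelled by standard Affymetrix protocols. The values deposited by the authors are linear intensities, 1 per probe set and array. The sources used here do not give their summary or scaling, and 3 arrays per group limit the precision. Of 45101 probe sets, 64 controls were left out. Gene names come from the platform annotation, and older symbols were brought up to date by gene identifier in the RefSeq table of GRCm38.p6. Those with several symbols (932) named no gene.

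Log2 of intensity, with a floor of 16, was fitted with limma 3.58.1 in R 4.3.3 over all probe sets above the median, with no covariate (tethered minus untethered, two-sided), and by an F test of the replicate number with group in the model. Intervals of 95% come from the moderated fit. The procedure was tested on simulated data with noise drawn independently for each array. Apart from planted changes, these held no level shared by same-numbered arrays, so the test does not cover that feature of the data. All probe sets of the genes were named, with the 5 most alike and, of each of the 5 gene lists, the 2 tested genes of smallest p between groups. Rrm2, Uhrf1 and Chaf1b were named outside this rule. Members, lists and tests were chosen with earlier results of these data known, and the promoter motifs after the sequences were seen. Alternatives were other floors, scalings, filters, a replicate block, no moderation, probe sets averaged by gene, and arrays left out.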

Additional observations from a re-analysis of the deposited data

How the results depend on the processing

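Between tethered and untethered cells 0 probe sets of the set, and 0 of all, were called under each of the alternatives run. At an unadjusted p under 0.05 the counts over all probe sets were 536 as reported, 1782 with no filter, 159 in the brightest 11259, 887 without moderation, 1487 without both arrays numbered 1, and 237 to 1488 with 1 array left out, and 0 of the set's tested probe sets in each. Of the 22 probe sets, 6 kept their direction in every alternative: Suv39h2 1436561_at, Ehmt1, Ehmt2 1426888_at, Setdb1 1458215_at, Cbx3 and Cbx5 1421933_at. Ehmt2 1460692_at turned positive only in the mean with 1426888_at, which points the other way (0.030). Read singly it was negative in every alternative, at -0.18 to -0.083 with 1 array left out. Same-numbered arrays deviated from their group means with correlations of 0.71, 0.075 and 0.71 for numbers 1, 2 and 3, so the numbers were not taken as pairs. With the replicate block 1232 probe sets had an unadjusted p under 0.05, 0 were called, and 0 of the set had an unadjusted p under 0.05.

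The number of tested probe sets below 0 was 4 with quantile normalization, which put the median over all probe sets at 0.0093 in place of -0.016, and 4 to 12 with 1 array left out (4 without tethered replicate 1 or untethered replicate 3). Quantile normalization also turned Setdb1 1451833_a_at to 0.031, Trim28 1456308_x_at to 0.022 and 1415869_a_at to 0.043, Cbx1 1436266_x_at to 0.0081 and Cbx5 1421934_at to 0.050. Centring on medians turned Setdb1 1451833_a_at to 8.2e-05, Cbx5 1421934_at to 0.0024 and 1421932_at to 0.0014. Without both arrays numbered 1, Setdb1 1416670_at stood at -0.12, Cbx1 1433718_a_at at -0.095, 1422935_x_at at 0.0035 and 1450797_a_at at -0.081, and Cbx5 1421934_at at 0.012 and 1421932_at at 0.036. Averaging the probe sets by gene gave Ehmt2 0.030, Cbx1 -0.0074 and Cbx5 0.026.

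With 1 array left out, the 6 that kept their direction ran from 0.054 to 0.12 (Suv39h2), -0.14 to -0.046 (Ehmt1), 0.046 to 0.32 (Ehmt2), -0.31 to -0.090 (Setdb1), 0.043 to 0.15 (Cbx3) and 0.059 to 0.59 (Cbx5). Suv39h2 1433996_at ran from -0.25 to 0.21 and 1422979_at from -0.38 to 0.75, Setdb1 1451833_a_at from -0.016 to 0.0063 and 1416670_at from -0.079 to 0.20, and Trim28 1456308_x_at from -0.15 to 0.035 and 1415869_a_at from -0.21 to 0.092. Cbx1 1433718_a_at ran from -0.12 to 0.14, 1436266_x_at from -0.17 to 0.047, 1422935_x_at from -0.11 to 0.020, 1431773_at from -0.049 to 0.057 and 1450797_a_at from -0.049 to 0.094. Cbx5 1421934_at ran from -0.055 to 0.061, 1454636_at from -0.51 to 0.19, 1450416_at from -0.078 to 0.30 and 1421932_at from -0.038 to 0.038.

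Between replicate numbers 1161 probe sets were called, and 645 with no filter, 2 without moderation, 2 without both arrays numbered 1 and 0 to 2979 with 1 array left out. Of the set 2 were called, and 1 with quantile normalization or centring, 0 without moderation or without both arrays numbered 1, and 0 to 3 with 1 array left out.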
